A study of Rattus norvegicus with 50 samples.

Results

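Methyl paraben (MPB), a preservative of cosmetics, foods and medicines, was compared with its olive oil vehicle (OIL) in the mammary glands of female Sprague-Dawley rats that had never been mated. The rule that picks the members uses labels and no measured value, and gives the 5 nulliparous MPB rats (MPB_null) and the 5 nulliparous oil rats (OIL_null), 10 of the 50 rats of the series. Dosing ran from postnatal day 1 to day 180, through the milk of daily dosed dams until weaning on day 28 and by gavage 3 times per week from then on, and the glands were taken on day 181. The other groups of 5 used below were parous MPB and oil rats (MPB_par and OIL_par, same dosing, mated on day 97) and nulliparous rats given triclosan (TCS_null), diethyl phthalate (DEP_null) or a mixture of the 3 chemicals (MIX_null). The written dosing protocol names diethyl phthalate and oil, and the schedule for MPB is taken to be the same, since its labels give the same days. The series describes all doses as low, and the MPB dose is not given in the sources used here. The study's methods, which describe diethyl phthalate and oil rats, state that rats were killed at whatever estrous stage they were in. They also state that no group held siblings and that a pair of caudal glands was taken per rat. All of this is taken to hold for the other groups. Whole glands gave RNA of all of their cell types, so that fewer cells of a type and less RNA per cell cannot be told apart. The hour at which each rat was killed is not given in the sources used here.

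RNA was extracted with a Promega kit in 3 rats and a Zymo kit in 2 rats of each of the groups MPB_null, OIL_null, MPB_par, OIL_par, TCS_null and MIX_null, while DEP_null held 1 Promega and 4 Zymo rats. Signals from Affymetrix Rat Gene 2.0 ST arrays are on a log2 scale, on which 1 unit is a 2-fold difference, and they still carried the kit, with a kit difference in 9582 of 12898 genes (74.3%; limma, Benjamini-Hochberg adjusted p below 0.05). The kit was therefore a term of every fit, and single-rat signals are given by kit. The 10 arrays spanned signals of 2.87 to 14.4, with medians of 6.73 to 6.86. After the kit was removed, correlations between rats ran from 0.866 to 0.981, and every one under 0.928 involved OIL_null_429. Marker genes fitted a mammary gland: Adipoq of adipocytes averaged 13.04, Dcn of fibroblasts 13.29, and Krt19 and Elf5 of luminal epithelium 11.60 and 11.57, whereas Ucp1 of brown fat (4.89) and Krt1 of skin (5.53) were low. Lymphocyte and muscle markers varied between rats: B-cell Cd79b ran from 7.21 to 11.41, with the highest value in OIL_null_429, and muscle Tnnt3 from 7.73 to 11.54, with the highest in OIL_null_431.

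The mammary gland of a never-mated adult is a branched tree of ducts, lined by luminal cells and wrapped by contractile basal cells, within a pad of fat that also holds fibroblasts, vessels, macrophages and lymph nodes. Estrogen acts on the luminal cells that carry its receptor, Esr1, which induce Pgr, the progesterone receptor, and Areg, the growth factor that passes the signal to their neighbors. Progesterone in turn induces Wnt4 and Tnfsf11. Parabens are known as weak agonists of estrogen receptors. The comparison made here asked whether early and lifelong exposure leaves a trace in the transcriptome of the gland.

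No gene was differentially expressed between MPB_null and OIL_null. Of 6449 genes tested, 0 (0%) had an adjusted p under 0.25 with a fold change of at least 1.5, the thresholds of the study, and the smallest p adjusted by Benjamini-Hochberg in limma was 0.846. At an unadjusted p under 0.05 there were 376 genes (5.83%), 255 higher (3.95%) and 121 lower (1.88%) in MPB rats. The fold change of 1.5 was passed by 91 genes (1.41%). Of these, 3 (0.0465%) were higher, Plpp2, Nr1d1 and Ska1, and 88 (1.36%) were lower. The median standard error of a difference was 0.14. The 95% interval of the difference lay within a 2-fold change in either direction for 6138 genes (95.2%) and within a 1.5-fold change for 5082 (78.8%). For most genes a change of 2-fold would therefore have lain outside the interval. For 311 genes the interval reached past 2-fold, so that even such a change was not excluded. For all genes outside the 78.8%, a change of 1.5-fold was not excluded.

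**Figure D1:**
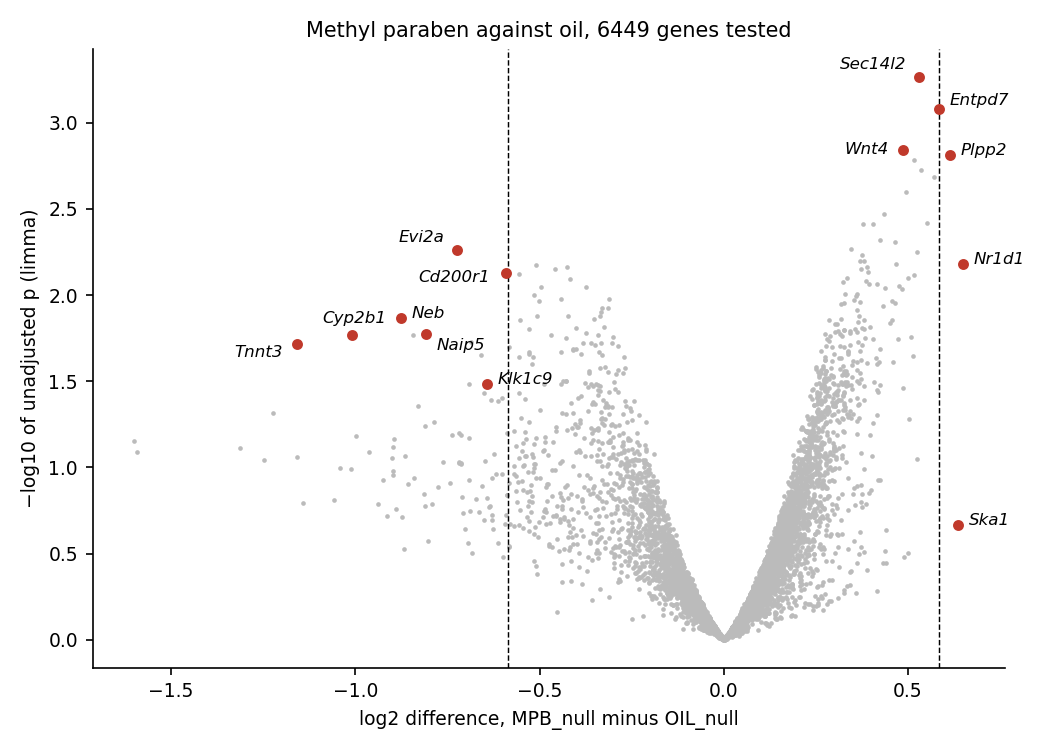
The log2 difference between MPB_null and OIL_null (horizontal) is plotted against the −log10 of the unadjusted limma p (vertical) for the 6449 genes tested, one point per gene, with dashed lines at a fold change of 1.5. The 3 genes right of the lines and the 88 left of them all had an adjusted p of 0.846 or more, and the named genes are in red.

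The smallest p belonged to Sec14l2, which encodes a lipid-binding protein that stimulates squalene epoxidase in cholesterol synthesis. This gene, Entpd7 and Wnt4 were singled out after their values were seen. In Promega rats the Sec14l2 signal was 9.17, 8.84 and 8.86 with oil and 9.39, 9.63 and 9.38 with MPB, and in Zymo rats 7.14 and 7.09 against 7.69 and 7.65. All MPB rats lay above all oil rats of their kit. The difference was 0.53 ± 0.11 (SE), with an unadjusted limma p of 0.000545.

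Entpd7, which encodes a nucleoside triphosphate hydrolase, read 7.83, 7.77 and 7.94 in Promega oil rats, 8.12, 8.43 and 8.32 in Promega MPB rats, 6.69 and 7.07 in Zymo oil rats and 7.81 and 7.53 in Zymo MPB rats. The groups did not overlap within either kit, and the difference was 0.58 ± 0.13 (SE). Wnt4, the progesterone-induced signal of luminal cells, read 8.55, 8.36 and 8.19 against 8.98, 8.90 and 8.85 in Promega rats, and 9.23 and 9.03 against 9.67 and 9.39 in Zymo rats, oil first. These groups did not overlap within a kit either, and the difference was 0.49 ± 0.12 (SE). Such separation in both kits held for 254 of all 18166 named genes (1.4%) in the higher and for 106 (0.584%) in the lower direction.

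Of the 3 genes past 1.5-fold in the higher direction, Plpp2, a lipid phosphate phosphatase, read 9.67, 9.52 and 8.91 in Promega oil rats, 10.16, 10.00 and 9.84 in Promega MPB rats, 10.34 and 10.30 in Zymo oil rats and 11.00 and 10.81 in Zymo MPB rats. The groups did not overlap within a kit, the difference was 0.61 ± 0.15 (SE), and it was 0.49 without OIL_null_429, below 1.5-fold. Ska1, of the spindle and kinetochore complex, differed by 0.64 ± 0.49 (SE) through MPB_null_130, at 9.22 against 5.14 to 6.71 in the other 9 rats. Without that rat the difference was 0.07. Nr1d1 is described with the clock genes.

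The 12 genes with the smallest p among those at least 1.5-fold lower in MPB rats fell into muscle genes, genes of immune cells and others, and none passed. Evi2a, which encodes a membrane protein of blood cells, read 8.95, 9.18 and 10.23 in Promega oil rats and 8.45, 8.78 and 8.63 in Promega MPB rats. In Zymo rats it read 9.91 and 10.03 against 9.26 and 9.56. The groups did not overlap within a kit, and the difference was -0.72 ± 0.21 (SE), or -0.50 without OIL_null_429. Cd200r1, an inhibitory receptor of myeloid cells, differed by -0.59 ± 0.18 (SE), with 1 Zymo MPB rat at 7.99 and the Zymo oil rats at 7.96 and 8.19. Ccr2, the receptor that draws monocytes into tissue, differed by -1.23 in Promega rats and by 0.20 in Zymo rats.

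Naip5, a sensor of bacterial proteins in mice, RGD1559575, the apoptosis inhibitor Bcl2 and Plek, a protein kinase C substrate of platelets and leukocytes, differed by -0.81, -0.84, -0.69 and -0.69. OIL_null_429 was the highest Promega rat in each of the 4, and without it the differences were -0.50, -0.49, -0.44 and -0.39, all short of 1.5-fold. Neb, Tnnt3 and Mybpc1, components of the muscle sarcomere, differed by -0.88, -1.16 and -0.65. Without OIL_null_431 these were -0.56, -0.65 and -0.41, so that Neb and Mybpc1 were short of 1.5-fold. Klk1c9, a kallikrein, differed by -0.64 ± 0.27 (SE), and between -0.85 (without OIL_null_429) and -0.42 (without OIL_null_427, short of 1.5-fold) with 1 rat left out.

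Cyp2b1, the drug-metabolizing enzyme known for its induction by phenobarbital in liver, read 6.69, 6.29 and 6.44 with oil and 5.54, 6.90 and 6.24 with MPB in Promega rats. In Zymo rats it read 8.37 and 7.73 against 5.51 and 6.29. The groups thus overlapped in Promega rats (difference -0.25) and were apart in Zymo rats (-2.15), where a fit to the 4 Zymo rats alone made it the single gene called. With both kits the difference was -1.01 ± 0.36 (SE). Of 27 measured genes of xenobiotic metabolism, 18 were lower and 9 higher, with a median of -0.06, and Cyp2b1 was the 1 lower member (3.7%) with an unadjusted p under 0.05, against 3.69% higher and 1.5% lower of all named genes. Without OIL_null_429 the median was -0.11, with 3 members lower at that level, and without OIL_null_431 it was 0.00. Cyp1b1, which hydroxylates estradiol, lay below the intensity limit and differed by -0.21.

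**Figure D2:**
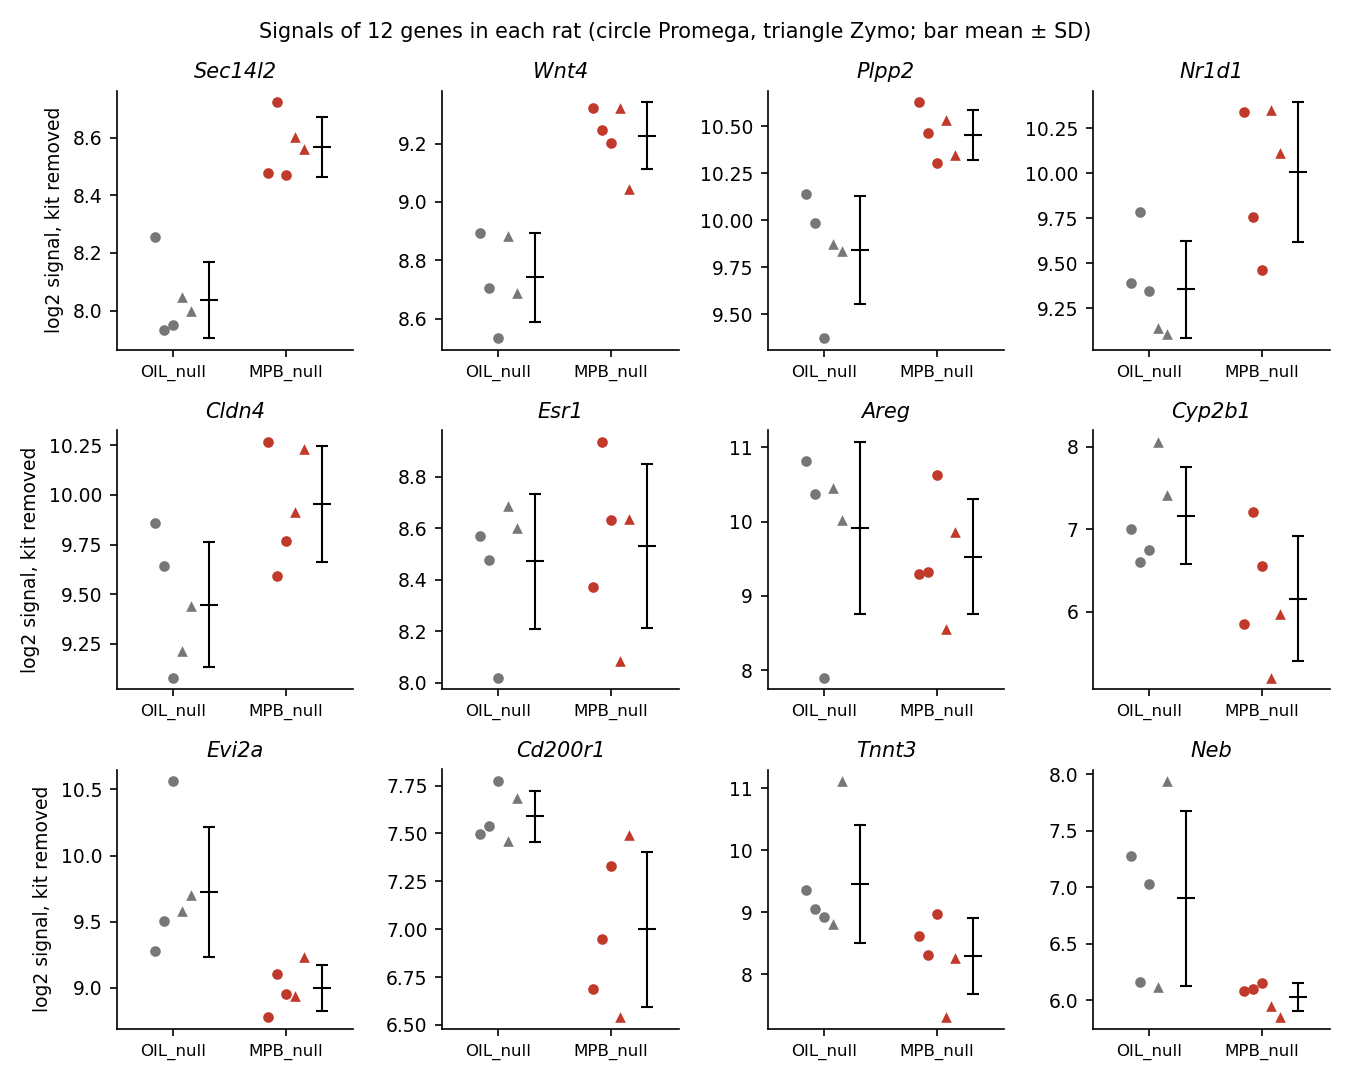
Each panel gives the log2 signal of 1 gene, with the kit difference removed, in the 5 OIL_null (gray) and 5 MPB_null (red) rats, circles for Promega and triangles for Zymo, with the group mean ± SD beside the points. The groups lie apart for Sec14l2, Wnt4 and Plpp2 and overlap for Esr1 and Areg, and OIL_null_429 is the highest oil rat for Evi2a and OIL_null_431 for Tnnt3 and Neb.

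The hormone receptors and the genes they are known to induce gave no common direction. Esr1 read 9.45, 9.35 and 8.89 in Promega oil rats and 9.25, 9.81 and 9.50 in Promega MPB rats, with 7.81 and 7.73 against 7.21 and 7.76 in Zymo rats. The groups overlapped in both kits, and the difference was 0.06, with a 95% interval of -0.33 to 0.45. Esr2 lay at 5.49 to 5.97 in all rats, below the intensity limit of 6.37, and differed by -0.02. Prlr, the prolactin receptor, differed by 0.00 (-0.45 to 0.44).

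Pgr varied far more than it differed. It read 10.76, 10.44 and 7.47 in Promega oil rats, 10.70, 8.06 and 10.54 in Promega MPB rats, 8.61 and 8.22 in Zymo oil rats and 6.88 and 8.76 in Zymo MPB rats. The low values were those of OIL_null_429 and MPB_null_128 and MPB_null_130, and the difference was -0.11 (-1.58 to 1.36), or from -0.73 (without OIL_null_429) to 0.31 (without MPB_null_128) with 1 rat left out. The same 3 rats had the highest means of the cell cycle list, 0.94, 0.74 and 1.27 above the mean of all 10 rats, against -1.05 to 0.02 in the other 7. Areg differed by -0.39 (-1.52 to 0.75), by -0.08 without MPB_null_130 and by -0.93 without OIL_null_429, which read 7.04 against 8.42 to 9.95 in the other Promega rats. The widths of these intervals leave differences of over 2-fold possible for Pgr and Areg.

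Among 12 measured genes of hormone-sensing luminal cells 7 were higher and Wnt4 was the 1 with an unadjusted p under 0.05. Among 17 estrogen-responsive genes 9 were higher, with a median of 0.01 and 0 at that level. Among 16 steroid receptors and enzymes of steroid metabolism, again 0 were at that level, the largest difference being -0.41 for Star, which carries cholesterol into mitochondria. Over all 18166 named genes 57.6% were higher, 3.69% were higher and 1.5% lower at an unadjusted p under 0.05, and the median was 0.02. The list counts use the fit over these genes, whose p is given for list members.

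Of 25 measured luminal epithelial genes 24 had a difference above 0, with a median of 0.21. None passed, and 6 had an unadjusted p under 0.05, all higher in MPB rats. The list means of the groups overlapped, at -0.41 to 0.14 with oil and 0.00 to 0.20 with MPB. Cldn4, a tight junction claudin, read 10.62, 10.41 and 9.85 against 11.04, 10.36 and 10.54 in Promega rats, oil first, and 8.45 and 8.68 against 9.15 and 9.47 in Zymo rats. The groups overlapped in Promega rats through MPB_null_128, and the difference was 0.51. Krt8, a keratin of luminal cells, Cldn7, Prss8, a channel-activating protease, Grhl2, a transcription factor of epithelia, and Cdh1, E-cadherin, differed by 0.41, 0.26, 0.32, 0.30 and 0.26. Over all named genes without OIL_null_429, 54.4% were higher, and 2.93% were higher and 2.1% lower at an unadjusted p under 0.05. In that comparison, which leaves out the rat with the lowest mean of the list (-0.41 against -0.17 to 0.20 in the other 9 rats), the luminal median was 0.12, 20 of 25 were higher and 3 had an unadjusted p under 0.05.

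Of 13 measured basal and myoepithelial genes 10 were higher, with a median of 0.21. Mylk, the kinase of smooth muscle contraction, Jag2, a Notch ligand, and Col17a1 had an unadjusted p under 0.05. All 3 were higher, against 3.69% of all named genes. Without OIL_null_429 0 of 13 were at that level. The milk proteins, which are made in late pregnancy and lactation, were split, 7 of 13 higher. Their 1 member with an unadjusted p under 0.05 was Xdh, which coats milk fat (0.28). Among 29 TGF-beta, BMP and Wnt genes, Wnt4, Lrp5, a Wnt co-receptor (0.46), and Sfrp2 (0.31) were higher, and Fzd4, a Wnt receptor (-0.37), lower, with an unadjusted p under 0.05.

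Of 17 clock genes 13 were higher, with a median of 0.20, and 5 (29.4%) had an unadjusted p under 0.05, all higher. Of all named genes 57.6% were higher, with 3.69% higher and 1.5% lower at that level. The mammalian clock is a loop in which Clock and Bmal1 activate Per, Cry, Nr1d1 and Dbp genes through E-boxes of sequence CACGTG, and Nr1d1 in turn represses Bmal1. Nr1d1 read 10.51, 10.90 and 10.47 in Promega oil rats, 11.46, 10.88 and 10.58 in Promega MPB rats, 8.02 and 7.99 in Zymo oil rats and 9.23 and 8.99 in Zymo MPB rats. The groups overlapped among Promega rats and were apart among Zymo rats, and the difference was 0.65 ± 0.20 (SE), with an unadjusted limma p of 0.0066. Dbp, a transcription factor driven by the clock, differed by 0.32, and Bhlhe40 and Bhlhe41, repressors of the loop, by 0.26 and 0.32. Bmal1, the arm that Nr1d1 represses, differed by -0.24 and Per2 by 0.25. The list mean lay at 0.03 to 0.15 in MPB rats and at -0.17 to 0.00 in oil rats, which did not overlap. With the kit estimated over the 25 nulliparous rats the groups overlapped, at -0.02 to 0.19 with MPB and -0.14 to 0.04 with oil. Against oil the list median was also above 0 in triclosan (0.08), mixture (0.08) and diethyl phthalate rats (0.07). These medians and that of MPB share the same 5 oil rats, so they are not independent. The median of MPB minus triclosan was 0.03 and that of MPB minus mixture 0.06. Without OIL_null_429 the median was 0.16 and 3 of 17 had an unadjusted p under 0.05, all higher. Of all named genes 2.93% were higher and 2.1% lower at that level without this rat.

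The promoters of 3 of the clock genes that were higher are shown because they hold the E-box of the loop, the CACGTG in capitals, which reads the same on both strands. They are the 250 bases before a RefSeq transcription start, 5′ to 3′, in GRCr8: Nr1d1 at chr10:84229455-84229704 on the minus strand (the second of its RefSeq starts), Bhlhe40 at chr4:143174200-143174449 on the plus strand and Bhlhe41 at chr4:180569356-180569605 on the minus strand.
Nr1d1: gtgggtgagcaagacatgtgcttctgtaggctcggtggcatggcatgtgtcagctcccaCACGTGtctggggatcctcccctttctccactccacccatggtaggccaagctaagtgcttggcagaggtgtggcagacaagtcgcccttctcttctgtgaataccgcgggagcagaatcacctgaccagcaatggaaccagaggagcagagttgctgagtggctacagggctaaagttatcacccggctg
Bhlhe40: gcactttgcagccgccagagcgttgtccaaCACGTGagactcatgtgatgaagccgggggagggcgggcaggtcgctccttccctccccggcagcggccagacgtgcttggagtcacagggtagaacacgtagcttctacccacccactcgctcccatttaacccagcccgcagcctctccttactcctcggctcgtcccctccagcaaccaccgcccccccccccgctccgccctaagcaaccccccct
Bhlhe41: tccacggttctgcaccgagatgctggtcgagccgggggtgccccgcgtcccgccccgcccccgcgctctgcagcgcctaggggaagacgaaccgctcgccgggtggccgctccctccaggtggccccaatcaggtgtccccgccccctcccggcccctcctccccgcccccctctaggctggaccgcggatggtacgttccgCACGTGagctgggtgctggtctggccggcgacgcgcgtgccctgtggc
The first base of the E-box lies 191, 220 and 48 bases before the start. Of the 17 measured clock genes 16 matched a RefSeq promoter and 5 held the E-box in at least 1 such window, Nr1d1, Tef, Ciart, Bhlhe40 and Bhlhe41. Of all 33469 windows 5.59% held it, a share that counts windows and not genes, and Nr1d1 has 2 windows. Dbp and Per2 did not hold these letters in this window.

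Lymphocyte genes were lower in MPB rats, with most of the difference coming from 1 oil rat. Of 19 T and NK cell genes 18 were lower, with a median of -0.48, and of 13 B and plasma cell genes all were lower, with a median of -0.49. OIL_null_429 lay 1.51 and 2.26 above the mean of the 10 rats on these lists, whereas the other 9 rats lay between -0.48 and 0.16 and between -0.57 and 0.12. Without it the medians were -0.11 and -0.13, with 4 of 19 and 4 of 13 genes higher and the rest still lower. The 12 genes of MHC class II presentation were all lower, with a median of -0.25, or -0.10 with 1 gene higher without that rat. Macrophage genes were lower in 18 of 21 with a median of -0.14, and -0.21 without it, and none had an unadjusted p under 0.05 with all rats.

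Skeletal muscle genes were lower in 19 of 20, with a median of -0.80. At an unadjusted p under 0.05 there were 5, all lower, against 1.5% of all named genes lower. Without OIL_null_429, 13 were lower at that level, against 2.1% of all named genes. Without OIL_null_431, 4 were lower and 1 higher. Tnnt3, fast troponin T, read 8.94, 8.63 and 8.49 in Promega oil rats, 8.19, 7.88 and 8.55 in Promega MPB rats, 9.23 and 11.54 in Zymo oil rats and 7.73 and 8.68 in Zymo MPB rats. The highest value was that of OIL_null_431, whose list mean was 1.87 above that of all rats, followed by OIL_null_427 at 0.69, while the others lay at -0.74 to -0.10. Without OIL_null_431 the median was -0.34 and the Tnnt3 difference was -0.65.

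Cell cycle genes were higher in 24 of 28 with a median of 0.17 and 0 at an unadjusted p under 0.05. Their median was -0.34 in Promega rats and 0.93 in Zymo rats, and with 1 rat left out it ran from -0.18 (without MPB_null_130) to 0.51 (without MPB_null_127) over both kits. Without OIL_null_429 it was 0.46, with all 28 members higher. Chaperones of the endoplasmic reticulum and cytosol were lower in 20 of 26, with a median of -0.11. Hyou1 (-0.30), Creld2 (-0.44) and Hsph1 (-0.33), which assist protein folding, had an unadjusted p under 0.05, against 1.5% of all named genes lower at that level. The chaperone median ran from -0.15 to -0.07 (without MPB_null_127) with 1 rat left out. Genes of lipogenesis were higher in 14 of 19, with a median of 0.14, or 0.05 without OIL_null_429, and Acly, which makes the acetyl-CoA of fatty acid synthesis, differed by 0.42 and was higher in every MPB rat than in the oil rats of its kit. Slc2a1, the glucose transporter, differed by 0.50 and Pfkl, a glycolytic enzyme, by 0.26. Cat, catalase, differed by -0.29, and Adrb3, the β-adrenergic receptor of adipocytes, by -0.44. All had an unadjusted p under 0.05 and none passed. At that level 2 of 19 hypoxia and glycolysis genes were higher and 1 lower, and of 18 antioxidant genes 1 was higher and 1 lower.

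**Figure D3:**
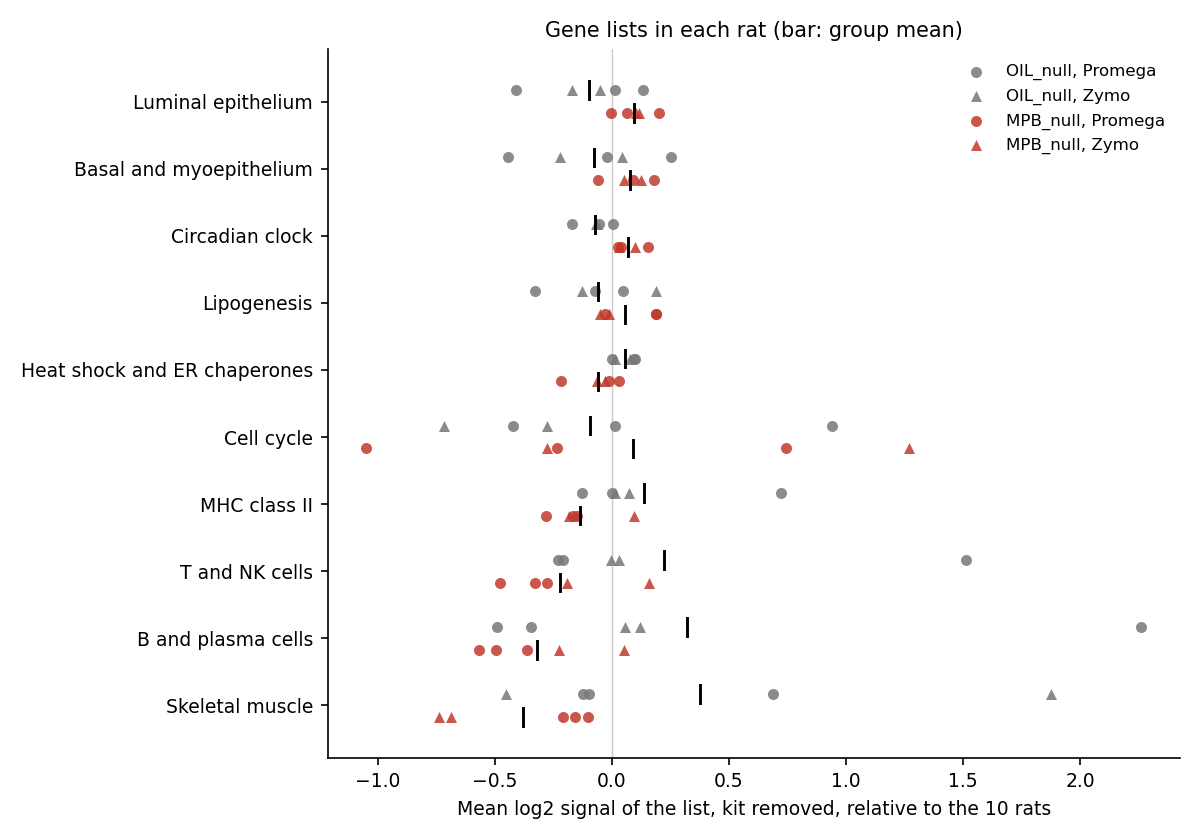
Points give the mean log2 signal of each gene list in 1 rat, with the kit removed and relative to the 10 rats, for OIL_null (gray) and MPB_null (red), circles for Promega and triangles for Zymo, with a bar at each group mean. OIL_null_429 stands apart at 1.51 and 2.26 on the lymphocyte lists, OIL_null_431 at 1.87 on the muscle list, and the clock list is the 1 shown whose groups do not overlap with the kit estimated over these 10 rats.

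In parous rats, which share no animal or control with the nulliparous comparison, MPB and oil differed in 0 of 6449 genes (0%), with 94 genes (1.46%) at an unadjusted limma p under 0.05. The test of the difference between the parities also called 0 genes (0%), with 190 (2.95%) at that level and a smallest adjusted p of 0.98. Of the 376 genes with an unadjusted p under 0.05 in nulliparous rats, 179 (47.6%) had the same direction in parous rats, against 46.3% of all genes tested. At that level in both parities were 7 of these 376 genes, all in the same direction. Of all genes tested, 1.46% were at that level in parous rats, and the 7 were not tested against that share.

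The 7 were Nr1d1, Dbp and Bhlhe40 of the clock, Tppp and Dlk2, which were higher, and Pla2g2a, a secreted phospholipase, and Npy2r, a neuropeptide Y receptor, which were lower. Over all named genes of the parous comparison 51.6% were higher, 1.34% higher and 0.831% lower at an unadjusted p under 0.05, while of 17 clock genes 13 were higher, 6 of them and 1 lower member at that level, with a median of 0.29. Nr1d1 read 9.84, 10.23 and 9.23 in Promega oil rats, 11.44, 10.50 and 11.35 in Promega MPB rats, 8.04 and 8.18 in Zymo oil rats and 9.51 and 9.24 in Zymo MPB rats. All MPB rats lay above the oil rats of their kit, and the difference was 1.31 ± 0.22 (SE), with an unadjusted limma p of 0.000117 in the fit over all named genes. Ciart, a repressor of the loop, read 6.29, 6.72 and 6.39 against 7.03, 7.03 and 6.96 in Promega rats and 6.54 and 6.77 against 7.13 and 7.09 in Zymo rats, oil first. The groups did not overlap within a kit, and its difference was 0.51 in parous and 0.20 in nulliparous rats. The separation of Nr1d1 and Ciart was not set against its share over all genes in parous rats. Dbp differed by 0.75 and Bhlhe40 by 0.29. None passed after adjustment in either parity, and the part of the hour of killing was not tested.

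Wnt4, Sec14l2 and Plpp2 differed by -0.15, -0.15 and -0.17 in parous rats. The difference between the parities had an unadjusted limma p of 0.0056, 0.02 and 0.023 for them in the fit over all named genes. In that fit 3.11% of genes had one under 0.05. These genes were named for their nulliparous difference, which is part of this test, so that share is no measure for them. Luminal epithelial genes were higher in 8 of 25 parous members (median -0.08), cell cycle genes in 0 of 28 (-0.44) and muscle genes in 19 of 20 (0.35). The difference between the parities had an unadjusted p under 0.05 for 6 of 20 muscle genes, 5 of 26 chaperones, 1 of 28 cell cycle genes and 0 of 25 luminal genes. Neb read 7.21, 6.10 and 6.96 in Promega and 6.18 and 8.0 in Zymo nulliparous oil rats against 5.91 to 6.09 in nulliparous MPB rats, whereas in parous rats the high values, 7.27 to 7.82, were those of the 3 Promega MPB rats. For Hsph1 the difference was -0.33 in nulliparous and 0.44 in parous rats. Hsph1, Dennd11, Klhl25, Tmem250 and Skic2 had the smallest p for the difference between the parities.

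**Figure D4:**
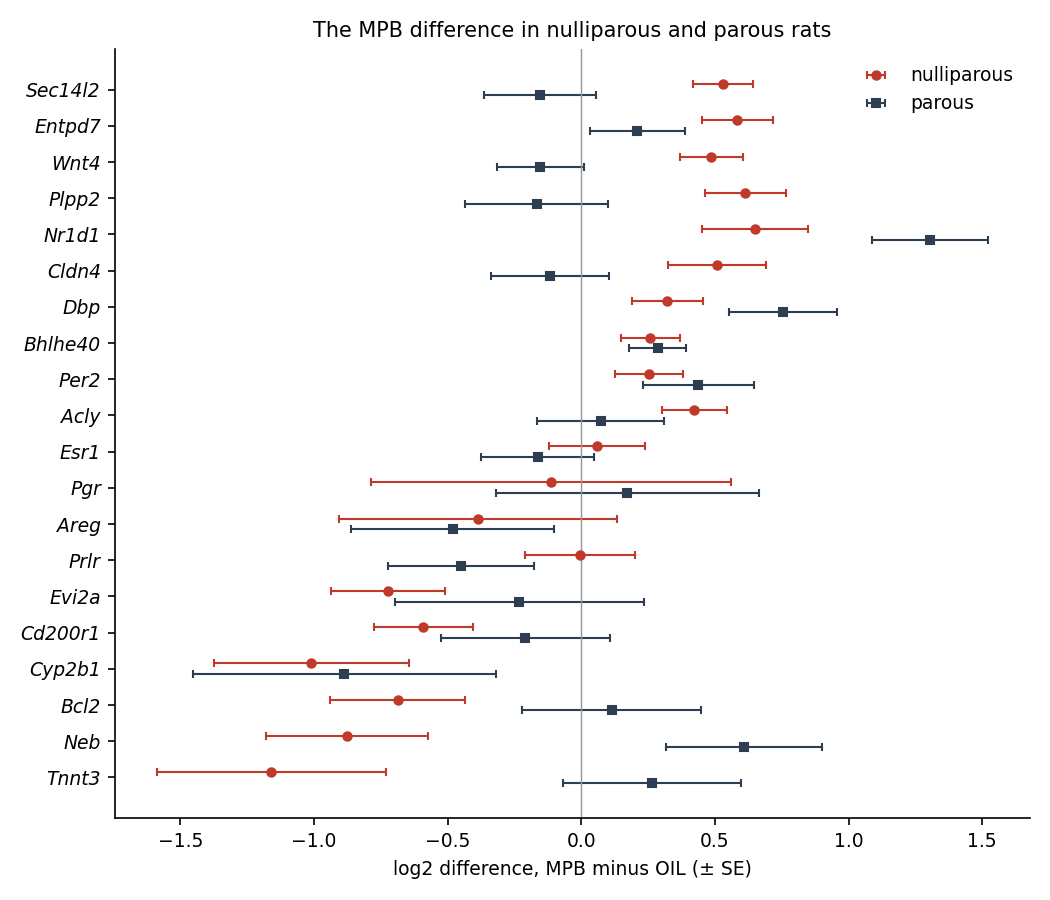
The log2 difference between MPB and oil rats (horizontal, ± SE) is given for 20 genes in nulliparous (red circles) and parous (dark squares) rats. Nr1d1, Dbp, Bhlhe40 and Per2 lie right of 0 in both, Sec14l2, Wnt4 and Plpp2 in nulliparous rats alone, and none of the differences passed.

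Set against the mixture, MPB rats again differed in 0 of 6449 genes (0%), with 285 (4.42%) at an unadjusted limma p under 0.05. The genes with the smallest p were Wnt4 (0.42 higher with MPB), Mylk2, Foxi1, Cyria and Cbx3l1. Plpp2 differed by 0.59 and Nr1d1 by 0.39 from the mixture. The MPB rats are the same in which Wnt4, Plpp2 and Nr1d1 were named against oil.

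Set against triclosan, 262 genes passed, 4 higher (0.062%) and 258 lower (4%) in MPB rats. The higher genes were Apln, a peptide that acts on vessels (0.84 ± 0.20, SE, adjusted p 0.0572), Kcnip4, C1qtnf7 and Car2. The lower ones held 13 of 16 tested T and NK cell genes and 10 of 10 B and plasma cell genes. Ms4a1, the B-cell antigen CD20, read 5.64, 5.53 and 5.43 in Promega and 6.29 and 6.54 in Zymo MPB rats, against 8.72, 7.99 and 5.70 in Promega and 10.88 and 10.76 in Zymo triclosan rats. All MPB rats lay below the triclosan rats of their kit, 1 of them narrowly, and the difference was -2.93 ± 0.55 (SE, adjusted p 0.0524). The smallest p values were those of Prkcb, Stap1, P2ry10, Ptprcap and Bcl11b, signaling and transcription genes of lymphocytes, at -0.99 to -1.67. The counts were 0 in Promega rats alone, 717 in Zymo rats alone and 0 without the kit term. They ran from 179 to 356 when 1 rat was left out, lowest without TCS_null_230, and no gene passed with the mean of the lymphocyte lists as a covariate. Most tested members of those lists were themselves called, so this fit cannot separate the lists from the treatment. Relative to the 25 nulliparous rats, the T and NK cell list lay between -0.88 and -0.53 in MPB rats, between -0.69 and -0.48 in 4 oil rats and at 1.24 in OIL_null_429. Triclosan rats spanned -0.68 to 1.34 and overlapped the MPB rats. Against oil, triclosan rats differed in 0 of 6449 genes (smallest adjusted limma p 0.689), while diethyl phthalate rats had 9 genes higher and 217 lower.

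Set against diethyl phthalate, 399 genes (6.19%) were higher and 252 (3.91%) lower in MPB rats. The higher genes held 14 of 19 tested luminal epithelial genes and 4 of 11 of hormone-sensing luminal cells, of which 1 more was lower. Cldn4 read 10.36 to 11.04 in Promega and 9.15 and 9.47 in Zymo MPB rats, against 9.03 in the Promega and 7.84 to 8.26 in the Zymo diethyl phthalate rats, which did not overlap (1.33 ± 0.18, SE, adjusted p 0.0173). Plpp2 (1.66), Aqp5, a water channel of secretory epithelium (1.76), Wnt4 (1.09) and Prlr (1.24) passed as well, as did Cblc, Hhipl2, Plekhb1 and Slc25a23, which had the smallest p. The luminal list lay at 0.15 to 0.35 in MPB, -0.26 to 0.29 in oil and -0.81 to -0.30 in diethyl phthalate rats, so that the last group stood apart from both others. The lower genes held 12 of 16 tested T and NK cell genes and 10 of 10 B and plasma cell genes. These were 0 and 0 without DEP_null_29, the 1 Promega rat of its group, when 412 genes were higher and 53 lower and 13 luminal genes passed. With the mean of the luminal list as a covariate no gene passed. That list set the groups apart, so this fit cannot separate the list from the treatment. The comparisons with the mixture, triclosan, diethyl phthalate and oil share the MPB rats.

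**Figure D5:**
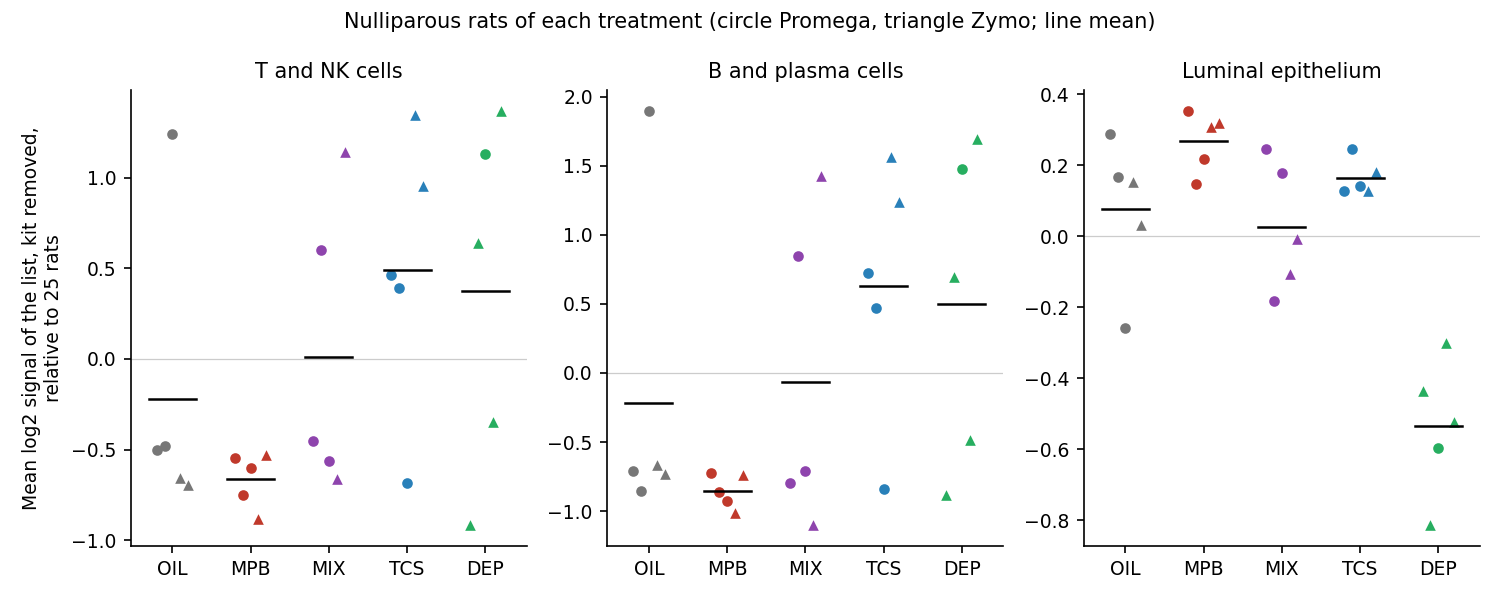
The mean log2 signal of 3 gene lists, with the kit removed and relative to the 25 nulliparous rats, is given for each rat of the 5 treatments, circles for Promega and triangles for Zymo, with a line at the mean. MPB rats are low on both lymphocyte lists like 4 of the 5 oil rats, and on the luminal list diethyl phthalate rats (-0.81 to -0.30) lie below all others.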

How the data were processed

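The authors scanned Affymetrix Rat Gene 2.0 ST arrays and, per the labels and methods, made the deposited log2 signals with RMA in Affymetrix Expression Console. The submitters' processing notes also name R 3.0.2. The study's methods remove the extraction kit with ComBat, but the deposited values still carried it. The table holds 36685 probesets, 18511 with 1 gene symbol in the platform annotation, 575 with several and 17599 with none, and only the first kind was named. For each of 18166 genes the probeset with the highest mean was used. Genes were tested if a group mean exceeded the 30th percentile of the kit-removed values (12898 genes) and if their interquartile range was in the upper 50% (6449 genes), as in the study's methods. limma 3.58.1 in R 4.3.3 fitted group and kit, and p-values were adjusted by Benjamini-Hochberg over the genes tested, two-sided. The call required an adjusted p below 0.25 together with a 1.5-fold difference, as in the study. SDs and list means use values with the kit removed. No pair of the 10 arrays was a copy, as their root mean square differences were at least 0.279. The number of arrays limits the precision, which is given by each standard error.

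Named were, by rule, the called genes, or, as here none were, up to 12 genes per direction with the smallest p among those past 1.5-fold, up to 4 members of each list with the smallest p, the 2 brightest members of cell type lists, the 5 genes with the smallest p in the other comparisons, and Esr1, Pgr, Areg, Prlr and Esr2. One further gene that the rule names is not reported here. The rule for the members uses labels alone, but it and the 38 gene lists (750 symbols, 651 measured) were chosen with earlier results of these data known. The fits were tested on simulated data. Promoter sequences are those of RefSeq in GRCr8. Alternatives concerned the kit, the samples, filters, normalization, variance model, thresholds, covariates and left-out rats. For the ComBat alternative, its parametric empirical Bayes adjustment was written out in R.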

Additional observations from a re-analysis of the deposited data

Results flagged for a closer look

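In 92 groups of 5 rats (33 genes and 13 gene lists, kit removed) the gap between an extreme rat and its nearest neighbor, as a share of the group's range, passed the critical value of 0.71 in 11. Chance alone flags about 1 in 20 groups, and genes and lists share rats.

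OIL_null_429 gave most of them. It was the highest oil rat on the T and NK cell list (0.85), the B and plasma cell list (0.778), the MHC class II list (0.764), RGD1559575 (0.765) and Bcl2 (0.748). It was the lowest on the list of estrogen-responsive genes (0.758) and on Areg (0.727). OIL_null_431 was the highest oil rat for Tnnt3 (0.759) and the lowest for Esr2 (0.777), a gene below the intensity limit. Among MPB rats, MPB_null_127 was the lowest for Plek (0.747) and MPB_null_130 the highest for Acly (0.714).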

How the results depend on the processing

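The count of 0 genes for MPB against oil in nulliparous rats stayed at 0 under every alternative but 1. These were no kit term, Promega rats alone, ComBat over all 50 rats, all 25 nulliparous or all 50 rats in 1 model, 4 other filters, every probeset, quantile normalization, array weights, robust estimation with an intensity trend, 3 other thresholds, 3 covariates, each of the 10 rats left out (0 to 0), both OIL_null_429 and OIL_null_431 left out (chosen after seeing the data), and the 25 rounds of 4 of 5 rats, in which 0 genes were ever called. In Zymo rats alone 1 gene was called, Cyp2b1, in a fit of 2 against 2. The counts of 0 for the parous rats, the mixture and the difference between the parities also stayed at 0 under all alternatives run, leave-one-out included. No paired analysis was possible because the labels number every rat differently. For triclosan the 262 calls became 0 without the kit term and, in alternatives chosen after seeing the data, 0 in Promega rats alone, 717 in Zymo rats alone and 0 with the lymphocyte lists as a covariate, and leaving out 1 rat gave 179 to 356. For diethyl phthalate the 651 calls became 379 without the kit term and, in alternatives chosen after seeing the data, 184 in Zymo rats alone, 416 with the lymphocyte lists and 0 with the luminal list as a covariate, and leaving out 1 rat gave 458 to 775. The luminal list set MPB and diethyl phthalate rats apart, so the fit with it cannot separate the list from the treatment. Most tested members of the lymphocyte lists were themselves called in both comparisons, so the fits with those lists cannot separate them from the treatment either. The cause of these changes was not tested. Over 23 alternatives, 33 genes gave 759 differences between MPB and oil in nulliparous rats, of which 26 changed sign and 20 moved by more than the SD between rats, and 13 list medians gave 299 values, of which 27 changed sign. Signals near the intensity limit of 6.37, such as those of Esr2 and Neb, limit what low genes can show.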
